A study of Mus musculus with 6 samples.

Results

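Imprinted genes are a set of 36 mouse genes that are known to be expressed mainly or only from the copy inherited from 1 parent. They were taken from a list of named genes that applies no threshold to the values, although it was drawn up with earlier results of these data known, and all 36 were found among the 24054 genes of each deposited table. All 36 also passed the filter on low counts, so that every member was tested. In the list, 14 genes are marked as expressed from the maternal copy and 22 from the paternal copy, and they fall into 15 clusters, 8 of them with more than 1 member. The RNA was measured in 6 libraries, with 2 replicates for each of 3 sorted populations of one double knock-in (DKI) mouse embryonic stem cell (ESC) line. Every population carried the same alleles, a Venus fusion of Foxa2 on 1 allele and a Cherry fusion of Sox17 on both, and no population without the reporters was included. The d0 cells were undifferentiated ESCs sorted as negative for both reporters. The d3F cells were taken on day 3 of culture on gelatine with Wnt3a and Activin A and sorted as positive for Foxa2-Venus and negative for Sox17-Cherry. The d5FS cells were taken on day 5 of the same culture and sorted as positive for both, which marks definitive endoderm. The comparisons ask how the levels of the imprinted genes differed between these stages. The libraries do not separate the parental copies, so every value is the sum over both alleles and the parental origin given below is background.

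Imprinting rests on DNA methylation that is laid down differently in egg and sperm at control regions, and that is kept after fertilisation while most other methylation is erased. A control region commonly governs several neighbours at once, either as an insulator bound by Ctcf or through a long noncoding RNA that silences genes in cis. Many imprinted genes act on fetal growth, with paternally expressed genes such as Igf2 promoting it and maternally expressed genes such as Igf2r, Grb10, Cdkn1c and Phlda2 restraining it, and many are strongly expressed in embryo, placenta and fetal liver. Mouse ESCs are known to lose or gain methylation at such regions in culture.

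Expected counts summed to between 16457729 and 22768686 per library. The sorted reporters followed the labels: Foxa2 was at 0.044 to 0.308 CPM (counts scaled to the TMM-adjusted library size) in d0 and at 36.6 to 71.1 CPM in the other populations, and Sox17 reached 54.3 and 102.5 CPM in d5FS. Of 10 definitive endoderm markers, 10 were called higher in d5FS than in d0 by the rule given below, beside 12.4% of all genes tested. The replicates of a population differed in several lists: summed pluripotency markers were at 2308 and 12020 CPM per kb in d0, and replication-dependent histone mRNAs, most of which lack a poly(A) tail, were higher in replicate 2 of every population. In the study's sample list, each population has a library listed as mRNA and another as total RNA, with no replicate number beside them, and the part of this difference in the results below was not tested. The study's methods call the libraries of a population biological replicates, and all come from a single cell line.

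Across the 36 listed genes, most calls separated d0 from d5FS, and more genes were called higher than lower. A gene is called when the edgeR quasi-likelihood test gives a Benjamini-Hochberg adjusted p under 0.05 over all 14539 genes tested and the absolute log2 fold change is above 1. From d0 to d5FS, 11 imprinted genes were higher and 3 lower, 38.9% of the 36, beside 22.8% of all genes tested (12.4% higher and 10.4% lower). From d0 to d3F, 3 were higher and 1 lower, 11.1% beside a background of 4.7% (2.8% higher and 1.9% lower). From d3F to d5FS, 4 were higher and 0 lower, 11.1% beside 1.54% (1.08% higher and 0.461% lower). At an unadjusted p under 0.05 in edgeR 11 members were higher and 3 lower in that step. The DESeq2 Wald test called 11 members there, of which 1 was lower. The share of all genes at these thresholds was not taken. The comparisons share samples and are not independent of each other. The median log2 fold change of the members was 0.38, 0.26 and 0.53 from d0 to d3F, d3F to d5FS and d0 to d5FS, and that of all genes tested was -0.006, 0.011 and 0.017. The lean from d0 to d5FS was not seen in 35 other imprinted genes tested, which are described at the end. Of those, 3 were higher and 4 lower, 20%, with a median log2 fold change of -0.053. In bulk RNA, a smaller share of cells that express a gene and less RNA in each cell cannot be told apart.

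The called genes were spread over 11 of the 15 clusters and over both parental classes. Of the 14 maternally expressed genes, 5 were higher and 1 lower in d5FS than in d0, with a median log2 fold change of 0.69. Of the 22 paternally expressed genes, 6 were higher and 2 lower, with a median of 0.30. Of the 28 protein-coding members 9 were higher and 3 lower, and of the 8 noncoding members 2 were higher, H19 and Airn. A total of 15 members were called in at least 1 comparison, namely the 14 of d0 to d5FS and Ascl2, and 21 in none. The d0 to d5FS count of 14 was 6 without d5FS replicate 1, and the d0 to d3F count of 4 was 2 without d0 replicate 2 and 1 without d3F replicate 2. The number called from d3F to d5FS rested on single libraries: without d3F replicate 1, d5FS replicate 1 or d5FS replicate 2 none of the 36 passed, and without d3F replicate 2 only H19 did. With the replicate number as a block, 8 members were called from d0 to d3F and 7 in the step to d5FS, with 15 between d0 and d5FS, and each gene that this adds is given with its blocked value below. The share of all genes called with the block, or without a library, was not taken.

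**Figure D1:**
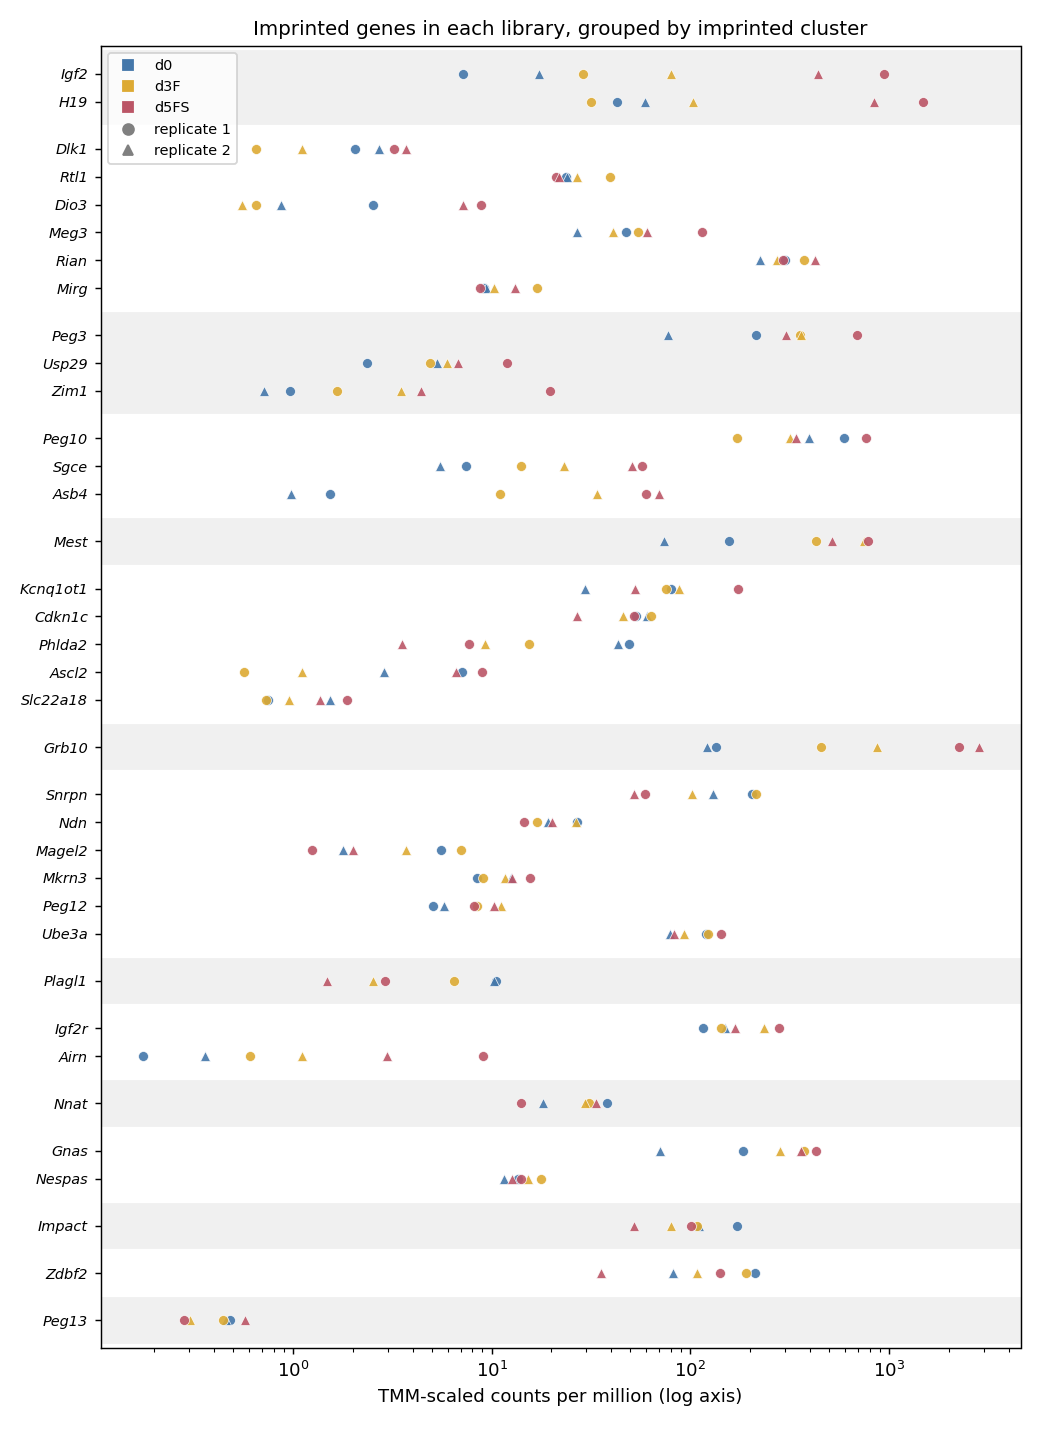
TMM-scaled CPM (log axis) of the 36 imprinted genes in the 6 libraries, grouped by imprinted cluster, with colour for the population and shape for the replicate. The points of Grb10, Asb4 and Sgce lie in 3 separate pairs from d0 to d5FS, while those of Rian, Cdkn1c and Ube3a from different populations are mixed.

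**Figure D2:**
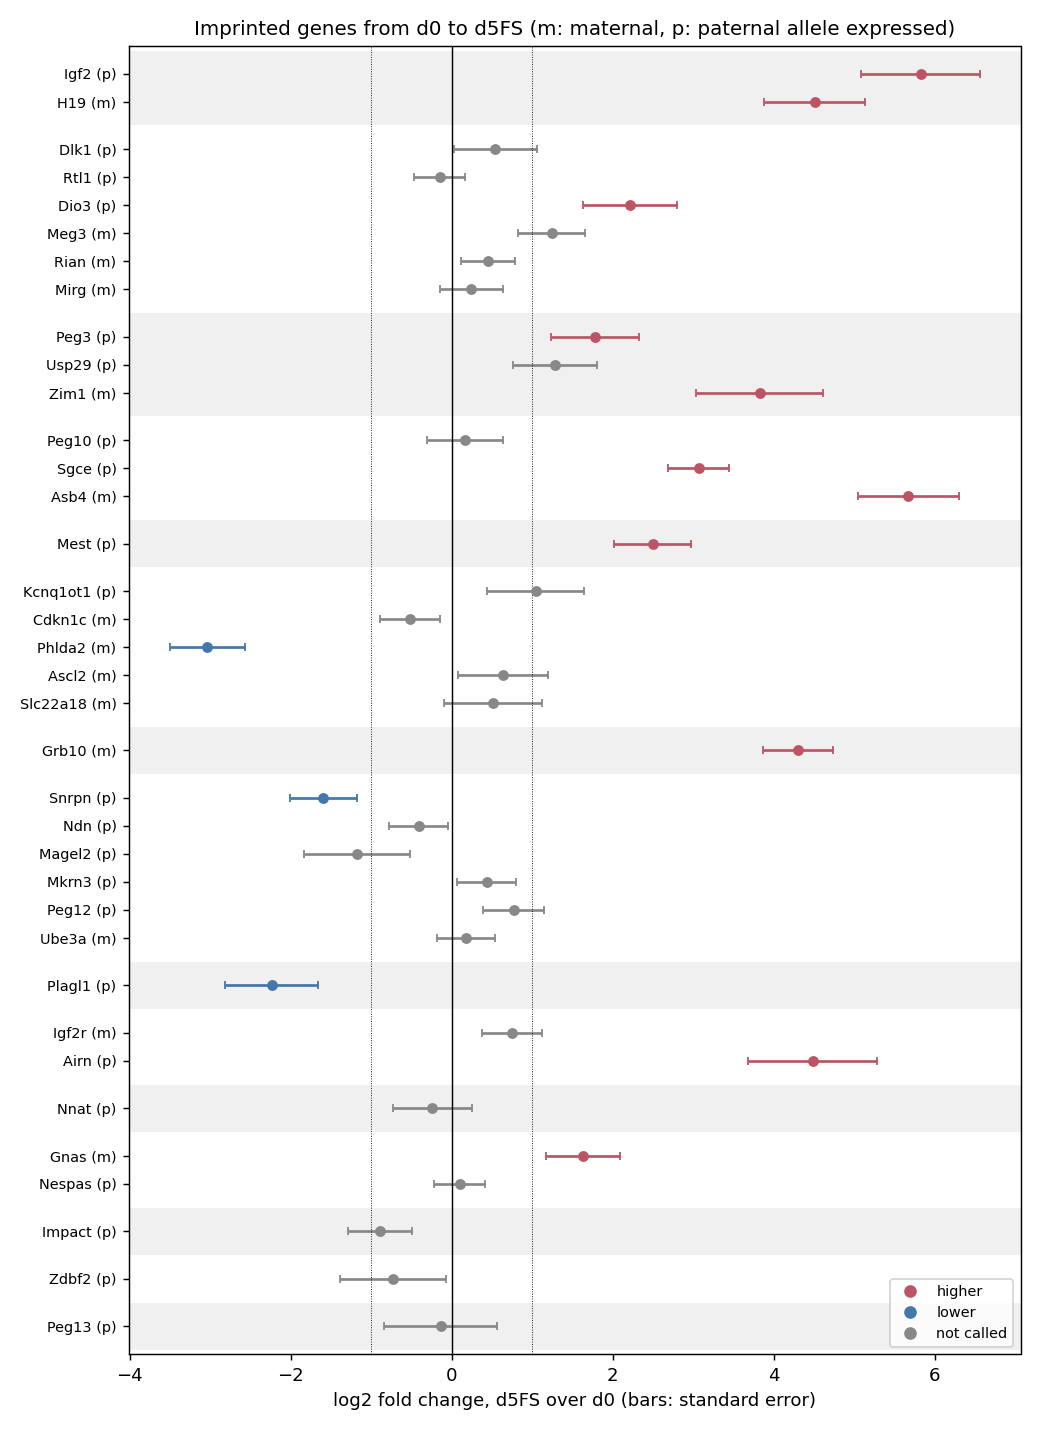
Log2 fold change of each imprinted gene in d5FS over d0 with its standard error from the edgeR fit, where m and p mark the parental copy known to be expressed and dotted lines mark the threshold of 1. The 11 genes called higher include Igf2 at 5.83, and the 3 called lower are Phlda2, Snrpn and Plagl1.

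Compared per kilobase of effective length, the leading imprinted genes changed between the populations. The sum over the 36 genes was 918 and 617 CPM per kb in d0, then 1150 and 1250 CPM per kb in d3F and 2650 and 2020 CPM per kb in d5FS, so that the sums of the 3 populations did not overlap. In d0 the highest means were those of Snrpn at 94.9 CPM per kb, Gnas at 88.6, Phlda2 at 86.3, Rian at 77.7 and Peg10 at 76.4, and this order was not the same in both libraries, since Gnas led in 1 and Phlda2 in the other. In d3F the leaders were Mest at 248 CPM per kb and Gnas at 229, with Gnas first in replicate 1 and Mest in replicate 2. In d5FS Grb10 at 520 and H19 at 481 led, again with a different leader in each library, and Mest and Gnas at 274 each and Igf2 at 197 followed. The lowest mean in every population was that of Peg13, at 0.10, 0.08 and 0.09 CPM per kb.

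Igf2, a fetal growth factor expressed from the paternal copy, and H19, a noncoding RNA expressed from the maternal copy of the same locus, were, beside Asb4, the members with the largest increases from d0 to d5FS. Igf2 lies on chromosome 7 from 142650766 to 142666816 (mm10, minus strand) and H19 on chromosome 7 from 142575529 to 142578143 on the same strand. Igf2 was at 7.15 and 17.3 CPM in d0, 28.9 and 79.7 CPM in d3F and 947 and 439 CPM in d5FS. Both d5FS libraries were above all others, with replicate 1 the higher of them, and the 3 populations did not overlap. The increase from d0 to d5FS was 56.7-fold (log2 fold change 5.83 ± 0.74 (SE), adjusted p = 0.00294). The increase in the step between d3F and d5FS was 12.8-fold (log2 fold change 3.67 ± 0.66 (SE), adjusted p = 0.0417). The value from d0 to d3F did not pass (2.15, adjusted p = 0.0926).

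H19 was at 42.8 and 59.4 CPM in d0, 31.8 and 103 CPM in d3F and 1487 and 838 CPM in d5FS. The d0 and d3F libraries overlapped, and both d5FS libraries stood above them. H19 rose 22.8-fold from d0 to d5FS (log2 fold change 4.51 ± 0.62 (SE), adjusted p = 0.00363) and 17.3-fold from d3F to d5FS (log2 fold change 4.11 ± 0.61 (SE), adjusted p = 0.0231), and its d0 to d3F value was 0.40, adjusted p = 0.757. Per kilobase, H19 exceeded Igf2 in every library, by 8.69 and 4.98 times in d0, 1.60 and 1.87 times in d3F, and 2.28 and 2.77 times in d5FS. The d3F to d5FS call of Igf2 was lost without any 1 of the d3F or d5FS libraries, with log2 fold changes of 3.11 and 4.58 without d3F replicate 1 or 2 and 3.003 and 4.12 without d5FS replicate 1 or 2. That of H19 was lost without d3F replicate 1 (3.48), d5FS replicate 1 (3.62) or d5FS replicate 2 (4.46).

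Both genes also carry a microRNA hairpin on their own strand, and so does Mest, described below. The mature sequences, from the RefSeq annotation of GRCm38.p6, are shown because these 3 hosts rose from d0 to d5FS. Capitals mark the seed, bases 2 to 8, which pairs with target mRNAs. The 6 sequences have 6 different seeds, and the mature miRNAs themselves were not measured in these libraries.
miR-483-5p, chr7:142654968-142654989, minus strand: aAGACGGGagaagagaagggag
miR-483-3p, chr7:142654932-142654952, minus strand: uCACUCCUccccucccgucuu
miR-675-5p, chr7:142577112-142577133, minus strand: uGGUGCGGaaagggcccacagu
miR-675-3p, chr7:142577078-142577099, minus strand: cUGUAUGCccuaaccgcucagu
miR-335-5p, chr6:30741314-30741336, plus strand: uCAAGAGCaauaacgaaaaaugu
miR-335-3p, chr6:30741354-30741375, plus strand: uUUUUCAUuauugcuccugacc

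Grb10, an adaptor that binds the insulin and IGF receptors and dampens their signal, rose from d0 to d3F and to d5FS, with no overlap between the 3 populations. It lies on chromosome 11 from 11930508 to 12038683 (minus strand) and is expressed mainly from the maternal copy outside neurons. Grb10 was at 135 and 122 CPM in d0, 457 and 871 CPM in d3F and 2257 and 2829.9 CPM in d5FS. Its increase from d0 to d5FS was 19.8-fold (log2 fold change 4.30 ± 0.43 (SE), adjusted p = 0.00173) and was called in every fit that left out 1 library. It had already risen 5.16-fold in d3F (log2 fold change 2.37 ± 0.40 (SE), adjusted p = 0.0177), a call that was lost without d0 replicate 2 (2.31) or d3F replicate 2 (1.84). The step from d3F to d5FS did not pass in the main fit (1.94, adjusted p = 0.0561) but did with the replicate block (1.97, adjusted p = 0.0175). That step also passed without the filter on low counts, with the DESeq2 Wald test and in a fit of the groups compared. Some fits that left out 1 library called it too.

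Igf2r, the receptor that carries Igf2 to lysosomes for degradation, did not pass in any comparison, while Airn, the noncoding RNA that is transcribed from the paternal copy across it and is known to silence it in cis, was called. Igf2r lies on chromosome 17 from 12682406 to 12769664 (minus strand) and Airn on chromosome 17 from 12741311 to 12860136 (plus strand). Igf2r was at 116 and 150.3 CPM in d0, 142 and 235 CPM in d3F and 279.9 and 168 CPM in d5FS, with overlap between neighbouring stages (0.75, adjusted p = 0.18 from d0 to d5FS). Airn was at 0.175 and 0.359 CPM in d0, 0.609 and 1.11 CPM in d3F and 9.08 and 2.98 CPM in d5FS, which is 4 and 7 expected counts in d0 and 160 and 52 in d5FS. The 3 populations did not overlap, and d5FS replicate 1 was the highest library. Airn rose 22.4-fold from d0 to d5FS (log2 fold change 4.48 ± 0.80 (SE), adjusted p = 0.0082), and the call was lost without d5FS replicate 1 (3.46). Per kilobase, the level of Airn divided by that of Igf2r was 0.0167 and 0.0265 in d0 and 0.359 and 0.197 in d5FS, with 0.0474 and 0.0525 in d3F. The mean effective length used was 787.8 bases for Airn, whose gene spans 118826 bases, and 8729.2 bases for Igf2r. The size of the ratio depends on these lengths. The genes overlap on opposite strands and the sources used here state no strand setting for the counting, so reads of the overlap cannot be assigned with certainty. Igf2r exceeded Igf2 per kilobase 6.54 and 3.49 times in d0, 1.98 and 1.18 times in d3F, and was at 0.119 and 0.154 of Igf2 in d5FS.

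Among 19 insulin and IGF signalling partners that are not themselves in the set, 16 could be tested, and from d0 to d5FS 6 were higher and 1 lower, 43.8% beside 22.8% of all genes. The 6 that rose were Pappa, a protease that cleaves IGF binding proteins (3.45), the binding proteins Igfbp7 (3.45), Igfbp5 (3.37) and Igfbp2 (1.80), the Igf2 mRNA binding protein Igf2bp2 (2.16) and the receptor substrate Irs1 (1.80), all as log2 fold changes. Igfbp7 was at 1.14 and 0.615 CPM in d0, 0.812 and 1.06 CPM in d3F and 17.8 and 1.66 CPM in d5FS, with d5FS replicate 1 far above replicate 2. The 1 that fell was Igf2bp1 (-1.38, adjusted p = 0.0164), named here after its value was seen. From d0 to d3F 3 were higher, 18.8% beside 4.7% of all genes (2.8% higher). From d3F to d5FS none of the 16 passed in edgeR, with 3 higher and 2 lower at an unadjusted p under 0.05. The d0 to d5FS count of 7 was 4 without d0 replicate 2 and 2 without d5FS replicate 1. Igf1r, the signalling receptor for Igf2, gave a log2 fold change of 0.56, adjusted p = 0.581, likewise named after its value was seen.

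The Peg10-Sgce cluster on chromosome 6 held genes that changed and genes that did not pass. Peg10, a retrotransposon-derived gene needed in the placenta, was at 593 and 395 CPM in d0, 171 and 316 CPM in d3F and 768 and 339 CPM in d5FS, with the d0 and d5FS libraries overlapping (0.16, adjusted p = 0.828). Sgce, which encodes epsilon-sarcoglycan and starts next to Peg10 on the opposite strand, was at 7.41 and 5.49 CPM in d0, 14.1 and 23.2 CPM in d3F and 57.2 and 51.2 CPM in d5FS. The 3 populations of Sgce did not overlap, and it rose 8.39-fold from d0 to d5FS (log2 fold change 3.07 ± 0.38 (SE), adjusted p = 0.00276). The single steps did not pass, with 1.53, adjusted p = 0.052 from d0 to d3F and 1.54, adjusted p = 0.079 from d3F to d5FS, but with the replicate block both did (1.52, adjusted p = 0.035 and 1.55, adjusted p = 0.0392).

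Asb4, a substrate adaptor of ubiquitin ligases on chromosome 6 from 5383386 to 5433022 and the maternally expressed member of the cluster, was at 1.53 and 0.974 CPM in d0, 11.1 and 34.1 CPM in d3F and 59.6 and 69.8 CPM in d5FS. It was near the lower end of detection in d0, with 35 and 19 expected counts, and its populations did not overlap. Asb4 rose 17.8-fold from d0 to d3F (log2 fold change 4.15 ± 0.59 (SE), adjusted p = 0.0123) and 51-fold from d0 to d5FS (log2 fold change 5.67 ± 0.62 (SE), adjusted p = 0.00195). It was the only 1 of the 4 members called from d0 to d3F that stayed called in every fit that left out 1 library.

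Mest, a hydrolase-like protein expressed from the paternal copy in mesoderm-derived and other embryonic tissues, rose early. It lies on chromosome 6 from 30723547 to 30748465 (plus strand) and overlaps Copg2 on the opposite strand. Mest was at 157 and 73.5 CPM in d0, 431 and 746 CPM in d3F and 785 and 515 CPM in d5FS, with both d0 libraries below all others and with d3F and d5FS overlapping. It rose 5.11-fold from d0 to d3F (log2 fold change 2.35 ± 0.48 (SE), adjusted p = 0.0324) and 5.64-fold from d0 to d5FS (log2 fold change 2.50 ± 0.48 (SE), adjusted p = 0.0102). The d0 to d5FS call was lost without d5FS replicate 1 (2.16). The d0 to d3F call was lost without d0 replicate 2 (1.92), d3F replicate 2 (1.92), d5FS replicate 1 (2.36) or d5FS replicate 2 (2.37).

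**Figure D3:**
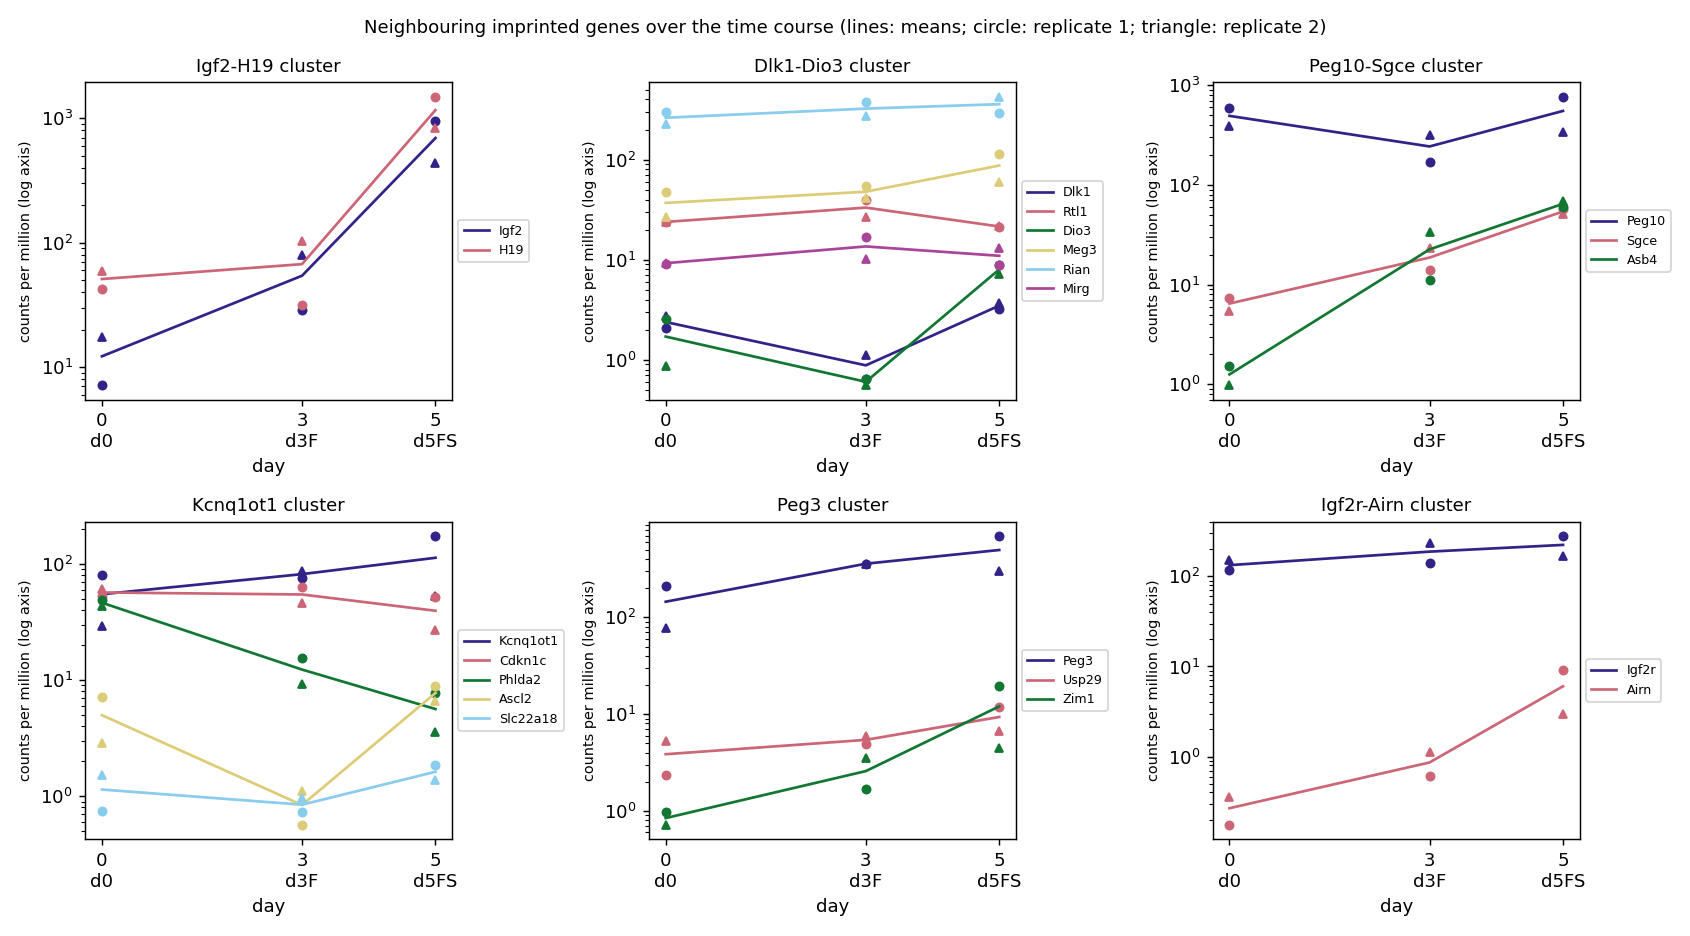
TMM-scaled CPM (log axis) of the members of 6 imprinted clusters against the day of sorting (0, 3 and 5), with a line through the population means and a point for each replicate. In the Igf2-H19 panel both genes lie highest in d5FS, in the Kcnq1ot1 panel Phlda2 falls while its neighbours do not all follow, and in the Dlk1-Dio3 panel Dlk1 and Dio3 lie lowest in d3F.

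In the Kcnq1ot1 cluster of chromosome 7, Phlda2 was the member that fell. Phlda2, which restrains growth of the placenta, lies on chromosome 7 from 143501545 to 143503150 (minus strand). It was at 49.3 and 43.5 CPM in d0, 15.4 and 9.25 CPM in d3F and 7.71 and 3.55 CPM in d5FS, so that the 3 populations did not overlap. It was 3.76-fold lower in d3F than in d0 (log2 fold change -1.91 ± 0.44 (SE), adjusted p = 0.0491) and 8.22-fold lower in d5FS than in d0 (log2 fold change -3.04 ± 0.47 (SE), adjusted p = 0.00474). The first of these calls was lost without either d0 library or either d3F library, with log2 fold changes of -1.82 and -1.98 without d0 replicate 1 or 2 and -2.32 and -1.58 without d3F replicate 1 or 2, and the second was kept in every such fit.

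Ascl2, a transcription factor of the trophoblast, was at 7.11 and 2.87 CPM in d0, 0.568 and 1.11 CPM in d3F and 8.91 and 6.59 CPM in d5FS. It was lowest in both d3F libraries and overlapped between d0 and d5FS. Its increase from d3F to d5FS was 9.25-fold (log2 fold change 3.21 ± 0.62 (SE), adjusted p = 0.0498), which was lost in each fit without a d3F or d5FS library (log2 fold changes of 2.78 and 3.75 without d3F replicate 1 or 2, and 2.96 and 3.41 without d5FS replicate 1 or 2). The decrease from d0 to d3F did not pass in the main fit (-2.58, adjusted p = 0.0535) but did with the replicate block (-2.48, adjusted p = 0.0487). It also passed with the DESeq2 scaling, the DESeq2 Wald test, no filter on low counts and 1 fit that left out a library. Kcnq1ot1, the paternally expressed noncoding RNA that silences the cluster in cis, was at 80.3 and 29.5 CPM in d0, 75.8 and 87.7 CPM in d3F and 174 and 52.6 CPM in d5FS and did not pass (1.04, adjusted p = 0.237 from d0 to d5FS), with the d0 and d5FS libraries overlapping. Cdkn1c, the cell cycle inhibitor p57, was at 53.3 and 60.3 CPM in d0, 63.2 and 46.03 CPM in d3F and 52.3 and 26.8 CPM in d5FS, and Slc22a18, a transporter-like protein, was between 0.73 and 1.88 CPM in all 6 libraries. Neither was called. Per kilobase, Phlda2 exceeded Cdkn1c 2.95 and 2.30 times in d0 whereas the ratio was 0.777 and 0.641 in d3F and 0.471 and 0.423 in d5FS.

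In the Dlk1-Dio3 cluster of chromosome 12, 1 of 6 members was called. Dio3, the deiodinase that inactivates thyroid hormone, was at 2.54 and 0.871 CPM in d0, 0.650 and 0.556 CPM in d3F and 8.85 and 7.17 CPM in d5FS, with both d5FS libraries above the rest. Dio3 was 13.1-fold higher in d5FS than in d3F (log2 fold change 3.71 ± 0.64 (SE), adjusted p = 0.0364) and 4.65-fold higher than in d0 (log2 fold change 2.22 ± 0.58 (SE), adjusted p = 0.0294). The first call was lost without any 1 of the 4 libraries compared, with log2 fold changes of 3.82 and 3.60 without d3F replicate 1 or 2 and 3.54 and 3.86 without d5FS replicate 1 or 2. The second was lost without d0 replicate 2 (1.66), d5FS replicate 1 (2.06) or d5FS replicate 2 (2.37). Dlk1, a transmembrane protein related to Notch ligands, was also lowest in both d3F libraries, at 2.06 and 2.72 CPM in d0, 0.650 and 1.11 CPM in d3F and 3.23 and 3.73 CPM in d5FS, and did not pass (1.98, adjusted p = 0.112 from d3F to d5FS). That step of Dlk1 passed with the DESeq2 Wald test and without the filter on low counts.

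The maternally expressed noncoding RNAs of this cluster did not pass in the main fit. Meg3 passed from d0 to d5FS with the replicate block, with the DESeq2 Wald test and without the filter on low counts. Rian, which hosts small nucleolar RNAs and miRNAs, was at 300.2 and 225 CPM in d0, 375 and 274 CPM in d3F and 292 and 426 CPM in d5FS, with no separation of the populations. Meg3, a marker often used for the state of this cluster in ESCs, was at 47.2 and 26.8 CPM in d0, 54.6 and 41.1 CPM in d3F and 115 and 60.2 CPM in d5FS, where the d5FS libraries were above both d0 libraries (1.24, adjusted p = 0.0631), a change that passed with the replicate block (1.23, adjusted p = 0.00711). Mirg, the host of 14 annotated miRNA hairpins, lay between 8.79 and 16.9 CPM. Rtl1, a retrotransposon-derived gene with a role in placental capillaries, was at 23.7 and 24.04 CPM in d0, 39.7 and 26.8 CPM in d3F and 21.05 and 21.95 CPM in d5FS. The table cannot separate Rtl1 from the transcript on its opposite strand, which holds 6 annotated miRNA hairpins, since no strand setting is given. Together, Meg3, Rian and Mirg exceeded the sum of Dlk1, Rtl1 and Dio3 per kilobase 12.8 to 17.5 times in the 6 libraries.

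The opposite-strand hairpins are shown by the mature sequences of miR-127 and miR-433, which lie antisense to Rtl1 with full complementarity and are known to direct its cleavage, with the seed (bases 2 to 8) in capitals. They are from RefSeq on GRCm38.p6, and their levels were not measured here.
miR-127-3p, chr12:109592888-109592909, plus strand: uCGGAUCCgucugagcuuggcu
miR-127-5p, chr12:109592854-109592875, plus strand: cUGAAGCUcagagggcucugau
miR-433-3p, chr12:109591781-109591802, plus strand: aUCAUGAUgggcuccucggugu
miR-433-5p, chr12:109591729-109591750, plus strand: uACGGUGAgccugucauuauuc

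The Peg3 cluster of chromosome 7 gave positive log2 fold changes from d0 to d5FS in all 3 members, of which 2 passed. Peg3, a zinc finger protein expressed from the paternal copy, was at 213 and 77.1 CPM in d0, 358 and 359.8 CPM in d3F and 692 and 303 CPM in d5FS, with both d0 libraries lowest, and was 3.43-fold higher in d5FS than in d0 (log2 fold change 1.78 ± 0.54 (SE), adjusted p = 0.0478). The call was lost without d0 replicate 2 (1.24), d3F replicate 1 (1.77), d3F replicate 2 (1.78) or d5FS replicate 1 (1.06). From d0 to d3F Peg3 gave 1.31, adjusted p = 0.214 and was called with the replicate block (1.52, adjusted p = 0.0468). Zim1, a zinc finger protein expressed from the maternal copy, was at 0.965 and 0.718 CPM in d0, 1.67 and 3.49 CPM in d3F and 19.6 and 4.41 CPM in d5FS. Its d5FS libraries were above all others but lay far apart, and the increase from d0 to d5FS was 14.1-fold (log2 fold change 3.82 ± 0.79 (SE), adjusted p = 0.0132), a call that was lost without d5FS replicate 1 (2.38). Usp29, a ubiquitin peptidase gene that starts next to Peg3, gave 1.28, adjusted p = 0.106 and was not called.

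In the Snrpn cluster, which corresponds to the Prader-Willi and Angelman region in human, 1 of 6 members was called. Snrpn, a core protein of spliceosomal particles, was at 206 and 130.3 CPM in d0, 215 and 102 CPM in d3F and 59.5 and 51.8 CPM in d5FS, with both d5FS libraries below the others and d0 overlapping d3F. It fell from d0 to d5FS (log2 fold change -1.59 ± 0.41 (SE), adjusted p = 0.0278), and the call was lost without d0 replicate 1 (-1.24), d5FS replicate 1 (-1.70) or d5FS replicate 2 (-1.49). From d3F to d5FS it gave -1.51, adjusted p = 0.111 and was called with the replicate block (-1.42, adjusted p = 0.0284). Snrpn shares its transcripts with Snurf on the same strand, so the division of reads between the 2 genes is an estimate. Ndn (-0.41), Magel2 (-1.18), Mkrn3 (0.43), Peg12 (0.77) and Ube3a (0.18) did not pass from d0 to d5FS. Ube3a, the ubiquitin ligase whose paternal copy is known to be silenced in neurons, was at 119.7 and 78.8 CPM in d0, 123 and 92.7 CPM in d3F and 142 and 82.5 CPM in d5FS, with overlap between all populations.

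The remaining members are single genes or small clusters. Gnas, the stimulatory G protein subunit, was at 184 and 70.02 CPM in d0, 373 and 283 CPM in d3F and 427 and 359 CPM in d5FS, with both d0 libraries lowest. It was 3.09-fold higher in d5FS than in d0 (log2 fold change 1.63 ± 0.46 (SE), adjusted p = 0.0358), and the call was lost without d0 replicate 2 (1.10), d3F replicate 1 (1.62), d3F replicate 2 (1.63), d5FS replicate 1 (1.49) or d5FS replicate 2 (1.76). From d0 to d3F Gnas gave 1.37, adjusted p = 0.127 and was called with the replicate block (1.48, adjusted p = 0.0325). Its antisense RNA Nespas, which overlaps it, lay between 11.5 and 17.8 CPM, highest in both d3F libraries, and gave 0.10, adjusted p = 0.85 from d0 to d5FS. The Gnas row pools its imprinted and biallelic transcripts.

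Plagl1, a zinc finger protein known as Zac1 that acts on a network of imprinted genes, was at 10.5 and 10.3 CPM in d0, 6.46 and 2.53 CPM in d3F and 2.89 and 1.49 CPM in d5FS. Both d5FS libraries were below both d0 libraries, d3F lay between with overlap, and Plagl1 fell from d0 to d5FS (log2 fold change -2.24 ± 0.57 (SE), adjusted p = 0.0269). The call was lost without d0 replicate 2 (-2.24), d5FS replicate 1 (-2.80) or d5FS replicate 2 (-1.83). Nnat, a neuronal membrane protein inside an intron of Blcap, gave -0.24, the translation regulator Impact -0.89 and the zinc finger gene Zdbf2 -0.73, none of them called. Peg13, a noncoding RNA, was at 0.57 CPM or less in every library, and no difference was detectable at this depth.

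Promoter sequences were examined because many control regions are bound by Zfp57, a zinc finger protein that binds methylated TGCCGC. RefSeq gives windows of 250 bases before to 50 after the start for 28 of the 36 genes, and for 8 no window was used here. The letters TGCCGC, or GCGGCA on the other strand, occurred in at least 1 window of 9 of the 28 genes, 32.1%, beside 13.1% of the 27025 genes with a window, and in 23.3% of the 43 member windows beside 11.6% of 32851. Some windows overlap almost wholly and hold the same matches, as in Mest, and each was counted. The Yy1 letters ATGGCG, or CGCCAT, occurred in 17.9% of the 28 genes beside 10.2%. Both motifs have a C next to a G, and the member windows held a median of 13 CpG beside 7 in all windows, so their richness in CpG was not separated from the motif count. Of 12 members called from d0 to d5FS with a window 6 held the Zfp57 letters, namely Igf2, Grb10, Mest, Zim1, Plagl1 and Snrpn, as did 3 of 16 not called. The called genes Igf2, Snrpn and Gnas have 4 windows each and Mest has 3, whereas no gene not called has more than 2. A gene with more windows has more chances to hold the letters, so the gene counts of these groups are not like for like. A match of letters is no evidence of binding or methylation, neither of which was measured here.

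Windows are shown for Grb10 and Mest, which were called higher in both d3F and d5FS than in d0. Windows of Plagl1 and Snrpn, which fell from d0 to d5FS, are shown as well. For each gene 1 window that holds the Zfp57 letters was picked. The letters occurred in 1 of 2 windows of Grb10, 2 of 3 of Mest, 1 of 4 of Snrpn and the only window of Plagl1. The 2 of Mest, chr6:30737800-30738099 and chr6:30737803-30738102, overlap almost wholly and hold the same matches. The letters are in capitals, and the windows are on the strand of the gene, from RefSeq on GRCm38.p6.
Grb10 promoter, chr11:12037371-12037670, minus strand: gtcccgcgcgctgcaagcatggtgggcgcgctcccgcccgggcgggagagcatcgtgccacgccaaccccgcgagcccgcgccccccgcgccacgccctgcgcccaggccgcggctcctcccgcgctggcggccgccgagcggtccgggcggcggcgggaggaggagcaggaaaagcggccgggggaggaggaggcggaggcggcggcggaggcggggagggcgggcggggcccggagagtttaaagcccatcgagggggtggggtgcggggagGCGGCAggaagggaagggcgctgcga
Mest promoter, chr6:30737800-30738099, plus strand: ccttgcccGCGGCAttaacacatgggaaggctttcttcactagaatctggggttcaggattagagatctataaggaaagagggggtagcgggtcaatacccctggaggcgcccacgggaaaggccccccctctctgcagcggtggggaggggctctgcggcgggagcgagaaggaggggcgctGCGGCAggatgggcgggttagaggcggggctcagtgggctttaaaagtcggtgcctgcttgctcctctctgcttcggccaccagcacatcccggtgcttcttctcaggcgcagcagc
Plagl1 promoter, chr10:13090582-13090881, plus strand: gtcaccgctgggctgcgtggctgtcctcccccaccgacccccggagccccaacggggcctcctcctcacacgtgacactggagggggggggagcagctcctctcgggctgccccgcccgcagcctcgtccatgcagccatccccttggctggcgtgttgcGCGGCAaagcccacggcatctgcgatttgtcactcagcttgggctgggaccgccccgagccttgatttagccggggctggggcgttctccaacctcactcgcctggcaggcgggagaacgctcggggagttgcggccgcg
Snrpn promoter, chr7:60005150-60005449, minus strand: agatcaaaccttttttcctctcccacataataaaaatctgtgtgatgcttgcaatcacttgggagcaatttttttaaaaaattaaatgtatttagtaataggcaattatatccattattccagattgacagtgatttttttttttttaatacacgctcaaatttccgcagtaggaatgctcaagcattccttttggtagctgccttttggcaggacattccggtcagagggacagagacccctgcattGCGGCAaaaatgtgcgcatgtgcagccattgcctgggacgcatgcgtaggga

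Genes that maintain imprints and DNA methylation were compared in the same libraries. Of 25 such genes 24 were tested, and from d0 to d5FS 0 were higher and 7 lower, 29.2% beside 22.8% of all genes (10.4% lower). At an unadjusted p under 0.05 in edgeR 1 was higher and 13 lower, the DESeq2 Wald test called 1 higher and 10 lower, and the edgeR count was 4 without either d5FS library. The 7 were Dnmt3l, a cofactor that sets imprints in the germ line (-5.06), Zfp42, also a pluripotency marker (-4.48), Dppa3, which protects the maternal genome after fertilisation (-4.12), the hydroxylase Tet1 (-2.28), the corepressor Trim28 that Zfp57 recruits (-1.92), the chromatin remodeller Hells (-1.87) and the methyltransferase Dnmt3a (-1.39), all as log2 fold changes. Dnmt3l was at 274 and 428 CPM in d0, 9.58 and 10.3 CPM in d3F and 9.53 and 11.5 CPM in d5FS, so the d3F and d5FS libraries lay together, far below d0. From d0 to d3F 3 were lower, Dnmt3l, Zfp42 and Dppa3, 12.5% beside 4.7% of all genes (1.9% lower). From d3F to d5FS none of the 24 passed in edgeR, with 2 lower and 0 higher at an unadjusted p under 0.05.

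Zfp57 and Zfp445, zinc finger proteins that recognise imprinted control regions, did not pass. Zfp57 was at 40.00 and 151 CPM in d0, 40.6 and 54.1 CPM in d3F and 76.1 and 79.7 CPM in d5FS, with the d0 libraries on both sides of the rest (log2 fold change -0.29 ± 0.53 (SE), adjusted p = 0.719 from d0 to d5FS). Zfp445, which shares this task, gave 0.10, adjusted p = 0.877. Dnmt1, which copies methylation at replication, was at 278 and 366 CPM in d0, 249.8 and 296 CPM in d3F and 126 and 202 CPM in d5FS and gave -0.97, adjusted p = 0.0699, and Dnmt3b gave -0.89, adjusted p = 0.111. For both methyltransferases the d5FS libraries lay below the d0 libraries. A p above the threshold does not show equal levels.

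**Figure D4:**
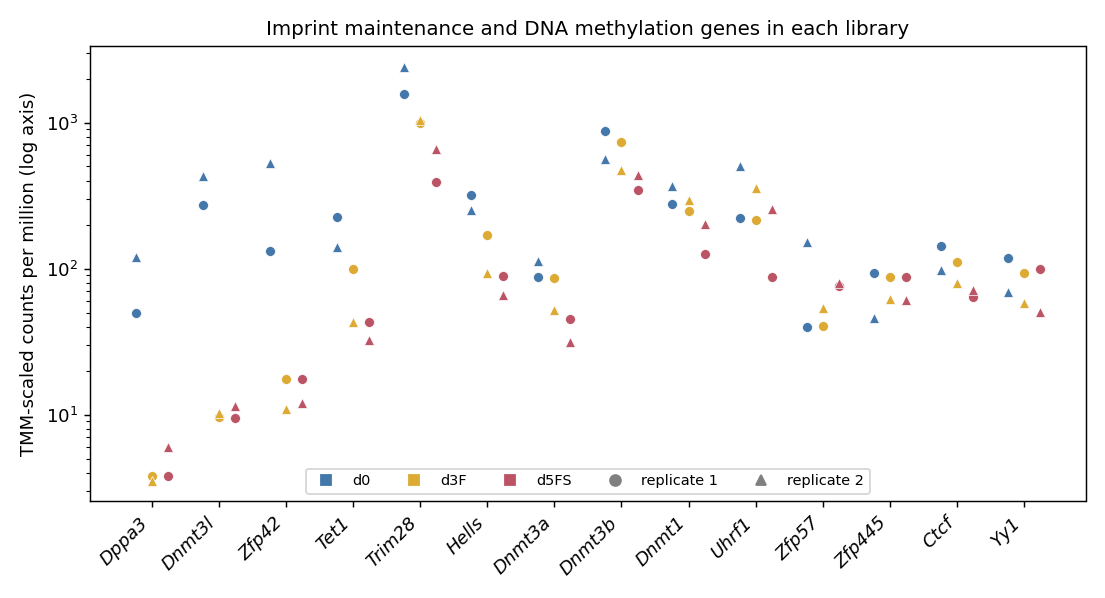
TMM-scaled CPM (log axis) of 14 genes that maintain imprints or DNA methylation, with colour for the population and shape for the replicate. Dppa3, Dnmt3l and Zfp42 drop between d0 and d3F, while Zfp57, Zfp445 and Yy1 show libraries of different populations at the same heights.

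Markers of other cell types were set beside the imprinted genes, since Igf2, H19, Mest and Phlda2 are known to be high in mesenchyme, yolk sac or placenta. Summed markers of embryonic fibroblasts were at 4.77 to 5.39 CPM per kb in d0, 9.35 to 19.1 in d3F and 41.6 to 52.9 in d5FS. Of 10 tested 4 were higher from d0 to d5FS, 40% beside 12.4% of all genes. Of this list, Col1a2 reached 109.6 and 156 CPM in d5FS. Col3a1 was at 1.93 and 2.36 CPM in d0 and 59.1 and 17.1 CPM in d5FS. Postn was at 0.570 and 0.359 CPM in d0 and 31.3 and 6.13 CPM in d5FS, and Col1a1 at 2.59 and 7.02 and at 30.4 and 14.6 CPM. Unlike Col1a2, these were higher in d5FS replicate 1 than in replicate 2. Thy1 was lower in d5FS, at 1.02 and 0.459 CPM against 3.07 and 1.49 CPM in d0. Fap was at 0 in every library, and Lum and Dcn were at 0.745 CPM or less. Summed extra-embryonic endoderm markers were at 112 to 179.8 CPM per kb in d0, 91.2 to 171 in d3F and 362 to 428 in d5FS. Most of the d5FS sum came from Sparc, at 252.9 and 246 CPM per kb. Rhox5 was at 42.3 and 125.4 CPM per kb in d0 and at 36.3 and 60.45 in d5FS, with overlap. Gata6 of this list is also in the definitive endoderm list. From d0 to d5FS 9 of 12 were higher, 75% beside 12.4% of all genes. Afp and Ttr, which liver and yolk sac share, were at 6.13 and 25.3 and at 10.7 and 20.2 CPM in d5FS. Summed trophoblast markers, a list that includes Ascl2, were at 27.6 to 34.0, 54.7 to 67.7 and 79.5 to 102.5 CPM per kb. Of 7 tested 3 were higher (Krt7, Eomes and Gata3) and 2 lower (Cdx2 and Tfap2c) from d0 to d5FS, 71.4% beside 22.8% of all genes. Most of the d5FS sum came from the keratin Krt7 at 55.9 and 32.5 CPM per kb and from Eomes, also a mesendoderm factor, at 33.6 CPM per kb in both libraries, while Prl3d1 was at 0 in every library. Fibroblast feeder cells were removed before differentiation according to the study's methods, and d5FS cells were gated on both Foxa2-Venus and Sox17-Cherry. The part of such cells in the values of Igf2, H19, Mest, Phlda2 and Ascl2 was not tested.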

How the data were processed

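RNA was sequenced from 6 libraries, 2 each of d0, d3F and d5FS, assigned from their titles. Per the labels and the study's methods, ribosomal RNA was depleted and the reads went through STAR, on the mm10 build, and RSEM, whose versions are not given in the sources used here. The authors deposited expected counts per gene, which are unnormalized fragment estimates and were rounded to whole numbers here. The deposited TPM and FPKM values, which RSEM scaled for length and library size, were not used for tests, because a few short RNAs (Rmrp, Rpph1, Snord and Snora genes) took 51.858 to 75.368 percent of TPM. The deposited effective lengths served for CPM per kb.

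Genes were kept by filterByExpr (14539) and tested with edgeR 4.0.16 in R 4.3.3: TMM scaling, a quasi-likelihood fit with a mean per population over all 6 libraries (3 residual degrees of freedom), calls at a Benjamini-Hochberg adjusted p under 0.05 with a log2 fold change beyond 1 in either direction. The standard error (SE) of a fold change is its size over the square root of F. DESeq2 1.42.0 was an alternative, as were the other scalings, filters, thresholds, a replicate block, a fit of the groups compared and fits without each library. Positions are from GENCODE M21, sequences from RefSeq.

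The members and lists were chosen with earlier results of these data known. Every member is named, as are Zfp57, Zfp445, Trim28, Dppa3 and the Dnmt genes; of other lists up to 6 genes called from d0 to d5FS with the largest change and both d5FS libraries on one side of d0, plus Foxa2 and Sox17. Igf2bp1, Igf1r and the markers of other cell types were named after their values were seen. Same-numbered libraries deviated together from the population means (Pearson correlations of 0.314, 0.324 and 0.278 for the 3 pairs of populations). The replicate number was therefore used as a block in an alternative fit, from the data and not from a label of a shared batch. The main fit had no block, so its fold changes, standard errors and calls take no account of this pairing. TMM factors ranged from 0.8772 to 1.082.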

Additional observations from a re-analysis of the deposited data

How the results depend on the processing

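No call of any of the 36 imprinted genes in any of the 3 comparisons was reversed under any alternative. Of the 1504 alternative values of the 108 fold changes, 68 lost and 46 gained a call, and 49 changed sign without a call in either fit. Apart from those under the replicate block, not every gained call is named above. Of the 14 members called from d0 to d5FS, 6 (Igf2, H19, Sgce, Asb4, Phlda2 and Grb10) kept the call in every fit that left out 1 library and 8 lost it in at least 1.

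The number of imprinted genes called was 4 from d0 to d3F and likewise 4 between d3F and d5FS, and 14 from d0 to d5FS, with 7 maintenance genes and 7 IGF partners called from d0 to d5FS. Without the filter on low counts, 10 and 13 imprinted genes were called in the first and second step, and 11 maintenance genes. The DESeq2 Wald test called 8 and 11 imprinted genes and 11 maintenance genes. DESeq2 with its null hypothesis set at a log2 fold change of 1 called 2 from d0 to d3F, 9 from d0 to d5FS, 3 maintenance genes and 3 IGF partners. The glmTreat test called 1, 1 and 9 imprinted genes, 4 maintenance genes and 3 IGF partners. For these moves the cause was not tested. The share of all genes that was called was taken for the main fit only. Counts under other settings or thresholds, here and above, therefore have no background beside them.

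Leaving out 1 library at a time gave 1 to 4 imprinted genes from d0 to d3F, 0 to 5 between d3F and d5FS and 6 to 14 over the whole course, 4 to 9 maintenance genes and 2 to 8 IGF partners. With the replicate number as a block, 8, 7 and 15 imprinted genes, 10 maintenance genes and 8 IGF partners were called. The block ended none of the calls of the 36 members, and added 8.

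With 2 libraries per population, a change must be large against their spread to pass, and genes at a few counts, such as Peg13, Airn in d0 and Dlk1, carry the least information. The counts cannot tell the parental copies apart.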

Other observations

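Other imprinted genes were called at a share near the background. Of 46 that have a row in the data, 35 were tested, and from d0 to d5FS 3 were higher and 4 lower, 20% beside 22.8% of all genes, with a median log2 fold change of -0.053. Those that rose included Osbpl5, a lipid transfer protein of the Kcnq1ot1 region (log2 fold change 2.60 ± 0.45 (SE), adjusted p = 0.00684 by edgeR), and Inpp5f, a phosphoinositide phosphatase (1.27, adjusted p = 0.0314). Those that fell were Smoc1, a secreted matricellular protein (log2 fold change -2.92 ± 0.44 (SE), adjusted p = 0.00448), Jade1, a chromatin protein (-2.77, adjusted p = 0.00263), Atp10a, a phospholipid transporter (-2.15, adjusted p = 0.042), and Sfmbt2, a Polycomb protein (-1.61, adjusted p = 0.031). From d0 to d3F 2 were lower, 5.7% beside 4.7% of all genes (1.9% lower), and from d3F to d5FS none of the 35 passed in edgeR, with 7 higher and 2 lower at an unadjusted p under 0.05.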
